A study of Mus musculus with 17 samples.

Results

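Hells, Bora and Shmt2 are 3 genes used by dividing cells, and their transcripts were followed in colon tissue from azoxymethane-treated mice across 17 samples. They were chosen by name from the 988 genes of an amplicon panel, with earlier results of these data known. Those results included the difference between genotypes in tumors, so the values of that comparison are a description here and carry no test. Amplicons differ in how well they amplify, so levels are compared between samples and never between genes.

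All mice received azoxymethane, a carcinogen that produces colon tumors in rodents, by intraperitoneal injection, and no untreated colon was analysed here. Kit-B6 is the C57BL/6 strain with intact Kit, and Kit-W/sh (strain labelled W-SASH) carries the sash mutation of Kit and is used as a mast cell-deficient model. Kit also serves other cells, so the strain is not a model of mast cell loss alone. Tumors came from mice at postnatal week 32, after 6 injections in 6 weeks and a further 18 weeks (6 Kit-B6 and 6 Kit-W/sh samples). Preneoplastic colon came from mice at postnatal week 14, after 3 injections in 3 weeks and a further 3 weeks (3 Kit-B6 and 2 Kit-W/sh samples). Stage is therefore tied to age, dose and tissue, and these cannot be told apart. The labels did not state that each sample came from a separate mouse, so p-values measure the spread between samples, which may in part be technical.

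Library totals ran from 616009 to 1399902 counts, and the 3 genes were well covered, with 92 to 1257 counts for Hells, 55 to 282 for Bora and 227 to 2296 for Shmt2. The lowest of these, the 55 counts of Bora in Kit-B6 tumor 2, gave 77.2 CPM (counts scaled by library size) with an exact 95% binomial interval of 58.1 to 100.4 CPM, for counting error only. Kit itself ranged over 94.2 to 476 CPM in Kit-B6 tumors and 49.1 to 258 CPM in Kit-W/sh tumors, 264 to 521 CPM in Kit-B6 preneoplastic colon and 113 to 125 CPM in Kit-W/sh preneoplastic colon. One library went against its label. The library labelled Kit-W/sh tumor 2 had 460 CPM of the mast cell carboxypeptidase Cpa3, against 0 to 9.86 CPM in the other 5 Kit-W/sh tumors and 11.4 to 257 CPM in Kit-B6 tumors. Its Kit, 258 CPM, was the highest of the Kit-W/sh tumors. Comparisons and correlations of the 3 genes that include this library are given with and without it. Stage values of the other pathway genes and the values of Epcam are given only with it. The epithelial adhesion gene Epcam was present in every sample, at 27520 ± 4297 CPM (SD, n = 6) in Kit-B6 tumors and 26790 ± 2707 CPM (SD, n = 3) in Kit-B6 preneoplastic colon.

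In the colon, stem and progenitor cells at the base of the crypts divide continually, and adenomas keep such dividing cells throughout the lesion. A dividing cell copies its DNA together with its chromatin marks, enters mitosis through kinases that switch each other on, and needs nucleotides made with one-carbon units carried by folate. Hells (also called LSH) is a chromatin remodelling ATPase that opens nucleosomal DNA for DNA methylation. Bora is the cofactor with which the kinase Aurora A activates the kinase Plk1 at mitotic entry. Shmt2 is the mitochondrial serine hydroxymethyltransferase, which splits serine into glycine and a one-carbon unit on tetrahydrofolate.

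Promoter windows of 2 of the 3 genes, Hells and Shmt2, were matched by symbol in RefSeq (GRCm38.p6), each holding 250 bases before and 50 bases after the annotated start. These are the members with a matched window, and none was found for Bora. The Hells window is chr19:38930740-38931039 on the plus strand, and the Shmt2 window is chr10:127522395-127522694 on the minus strand. The capitals mark a match to an E2F site, the element through which E2F factors drive S-phase genes.

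Hells: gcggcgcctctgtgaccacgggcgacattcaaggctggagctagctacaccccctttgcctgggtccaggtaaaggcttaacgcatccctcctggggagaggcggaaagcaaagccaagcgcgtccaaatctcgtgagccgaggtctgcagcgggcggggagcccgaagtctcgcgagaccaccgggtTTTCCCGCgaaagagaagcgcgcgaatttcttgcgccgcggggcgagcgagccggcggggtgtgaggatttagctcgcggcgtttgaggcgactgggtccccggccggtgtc

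Shmt2: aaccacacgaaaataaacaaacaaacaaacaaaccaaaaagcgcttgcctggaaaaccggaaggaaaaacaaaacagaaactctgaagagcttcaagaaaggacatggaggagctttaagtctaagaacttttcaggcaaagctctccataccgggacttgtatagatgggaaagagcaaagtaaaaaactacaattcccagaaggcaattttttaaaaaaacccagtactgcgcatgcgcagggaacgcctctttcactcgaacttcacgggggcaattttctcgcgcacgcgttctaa

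The letters searched on both strands were the E2F sites TTTCGCGC, TTTGGCGC, TTTCCCGC and TTTGCCGC, the CCAAT box, the cell cycle homology region with the letters TTTGAA, and the ATF4 site TGATGCAA. The Hells window held 1 of them, TTTCCCGC on the plus strand, which begins at position -62 from the start and overlaps no other match. That motif was present in 1.07% of the 32851 promoter windows of the table, and any of the 4 E2F sites in 2.26%. The Shmt2 window held none of these letters, while TTTGAA stood in 17.9%, CCAAT in 37.4% and TGATGCAA in 0.895% of all windows. These matches describe the sequence and do not show binding.

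Hells was lowest in preneoplastic colon and highest in Kit-W/sh tumors. Its level was 167, 234 and 296 CPM in the Kit-B6 preneoplastic samples and 377 and 184 CPM in the Kit-W/sh preneoplastic samples. In Kit-B6 tumors it ran from 353 CPM over a median of 362 to 518 CPM, and in Kit-W/sh tumors from 357 CPM over a median of 692 to 974 CPM. The Kit-B6 tumors were tightly grouped apart from sample 3, whereas the Kit-W/sh tumors were widely spread. Group means were 232 ± 65 CPM (n = 3) in Kit-B6 and 281 ± 136 CPM (n = 2) in Kit-W/sh preneoplastic colon, then 387 ± 64.5 CPM (n = 6) in Kit-B6 and 681 ± 230 CPM (n = 6) in Kit-W/sh tumors, as mean ± SD. In this order every pair of neighbouring groups overlapped in range.

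Bora followed another order, with its highest levels in preneoplastic colon. It stood at 214, 255 and 282 CPM in the Kit-B6 preneoplastic samples and at 330 and 340 CPM in the Kit-W/sh preneoplastic samples. The Kit-B6 tumors gave 77.2 CPM at the lowest, a median of 122 CPM and 180 CPM at the highest. The Kit-W/sh tumors gave 159 CPM at the lowest, a median of 200 CPM and 231 CPM at the highest. From low to high, the means were 123 ± 33.7 CPM in Kit-B6 tumors, 198 ± 25.7 CPM in Kit-W/sh tumors, 250 ± 34.7 CPM in Kit-B6 preneoplastic colon and 335 ± 6.91 CPM in Kit-W/sh preneoplastic colon. The ranges of the tumor groups overlapped, as did those of Kit-W/sh tumors and Kit-B6 preneoplastic colon, and the preneoplastic groups did not.

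Shmt2 was nearly flat across preneoplastic colon and higher in every tumor. It was at 427, 408 and 379 CPM in the Kit-B6 preneoplastic samples and at 405 and 492.6 CPM in the Kit-W/sh preneoplastic samples. The Kit-B6 tumors ran from 556 CPM over a median of 702 to 933 CPM, and the Kit-W/sh tumors from 653 CPM over a median of 1153 to 1779 CPM. All tumors lay above all preneoplastic samples. Means were 405 ± 24.4 CPM in Kit-B6 and 449 ± 61.9 CPM in Kit-W/sh preneoplastic colon, 724 ± 141 CPM in Kit-B6 tumors and 1268 ± 434 CPM in Kit-W/sh tumors. The genotypes overlapped at each stage, and Kit-W/sh preneoplastic colon and Kit-B6 tumors did not overlap.

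**Figure D1:**
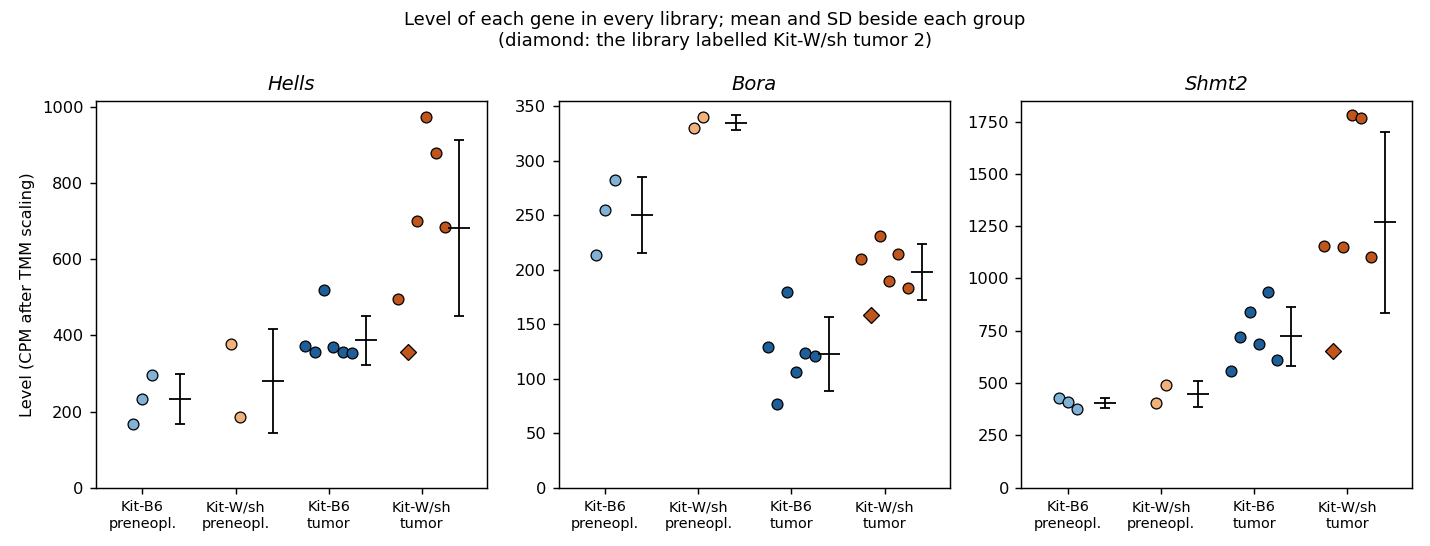
Level (CPM after scaling, linear axis from 0) of Hells, Bora and Shmt2 in each of the 17 libraries by group, with the mean and SD beside each group; the diamond is the library labelled Kit-W/sh tumor 2. Hells and Shmt2 are highest in Kit-W/sh tumors (681 and 1268 CPM on average), while Bora is highest in Kit-W/sh preneoplastic colon (335 CPM).

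The first comparison asked what changed from preneoplastic colon to tumor within each genotype. Its tumors are also those of the genotype comparison that led to the choice of the genes, so its p-values are not free of that choice. A choice by high Kit-W/sh tumors favours a rise there, and by low Kit-B6 tumors a fall there. In Kit-B6 mice Shmt2 rose 1.77-fold, a log2 fold change of 0.82 ± 0.26 (standard error; edgeR adjusted p = 0.0195), with 6 of 6 tumors above all 3 preneoplastic samples. Bora fell by 1.04 ± 0.21 on the log2 scale, with 6 of 6 tumors below all 3 preneoplastic samples (edgeR adjusted p = 0.00152). Hells had a log2 fold change of 0.72 ± 0.31 (95% interval 0.08 to 1.37) and did not pass (edgeR adjusted p = 0.0655), although its groups did not overlap. It passed in 4 of 18 alternatives, with adjusted p-values from 0.0214 to 0.21. Thus 1 of the 3 genes was called higher, where 22.2% of the 869 genes tested were, and 1 lower, where 18.9% were. The balance of calls depends on scaling, with 193 genes higher and 164 lower here and 273 and 101 from unscaled library totals. For 29.2% of all genes tested the groups of this comparison did not overlap, so separated groups were common.

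In Kit-W/sh mice Shmt2 rose 2.80-fold (log2 fold change 1.48 ± 0.32, edgeR adjusted p = 0.00228), again with 6 of 6 tumors above both preneoplastic samples. Hells rose 2.40-fold (1.27 ± 0.37, edgeR adjusted p = 0.0134), with 5 of 6 tumors above both preneoplastic samples. Bora fell by 0.77 ± 0.24 on the log2 scale (edgeR adjusted p = 0.0199), with 6 of 6 tumors below both preneoplastic samples. So 2 genes were called higher, against 20.9% of the genes tested, and 1 lower, against 18.8%. The calls numbered 182 higher and 163 lower, and 253 and 108 from unscaled totals. The groups did not overlap for 58.6% of all genes here, a share that 2 preneoplastic samples make easy to reach. Without the library labelled Kit-W/sh tumor 2 the log2 fold changes were 1.40 ± 0.33 for Hells, -0.72 ± 0.25 for Bora and 1.62 ± 0.26 for Shmt2, and all 3 calls were kept.

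Single libraries decided some of these calls. The rise of Shmt2 in Kit-B6 mice did not pass without preneoplastic sample 2 (edgeR adjusted p = 0.053) or sample 3 (0.0698), over a range of 0.00334 to 0.0698 in 18 alternatives. In Kit-W/sh mice the rise of Hells did not pass without preneoplastic sample 2, where it was 0.84 ± 0.45 (edgeR adjusted p = 0.19, range 0.00207 to 0.19 in 17 alternatives). Without preneoplastic sample 1 it was 1.88 ± 0.49. The fall of Bora in Kit-W/sh mice did not pass without either preneoplastic sample (edgeR adjusted p = 0.118 and 0.113, range 0.00614 to 0.175 in 17 alternatives), nor under 3 other scalings, where it stayed negative. The fall of Bora in Kit-B6 mice passed in all 18 alternatives (adjusted p 2.39e-05 to 0.0285), and the rise of Shmt2 in Kit-W/sh mice in all 17 (3.01e-05 to 0.0492).

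The second comparison asked how the genotypes differed at each stage. In preneoplastic colon the differences of Kit-W/sh from Kit-B6 were smaller than their standard error for Hells and Shmt2, and larger than it for Bora. The log2 fold change was 0.25 ± 0.40 for Hells (95% interval -0.71 to 1.20, edgeR adjusted p = 0.849). It was 0.40 ± 0.22 for Bora (-0.14 to 0.93, edgeR adjusted p = 0.531) and 0.13 ± 0.19 for Shmt2 (-0.32 to 0.57, edgeR adjusted p = 0.844). None of the 3 was called, and edgeR called 0.129% of the 777 genes tested, a single gene, the interferon regulator Irf7. Bora was the 1 member whose groups did not overlap, as was the case for 30% of all genes. These intervals are wide, with 2 Kit-W/sh libraries behind them. Hells turned to -0.39 ± 0.47 without Kit-W/sh sample 1, and its value therefore rests on 1 library.

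In tumors the mean of each of the 3 genes was higher in Kit-W/sh mice. Hells was 1.74-fold higher (log2 fold change 0.80 ± 0.22), and 4 of 6 Kit-W/sh tumors lay above every Kit-B6 tumor. Bora was 1.60-fold higher (0.68 ± 0.19), with 5 of 6 Kit-W/sh tumors above every Kit-B6 tumor. Shmt2 was 1.73-fold higher (0.79 ± 0.22), likewise with 5 of 6 above. These values led to the choice of the genes. The groups overlapped for all 3, and the share of all genes with separated groups was 0.626%. With edgeR 0% of the 799 genes tested in tumors were called, while 109 had an unadjusted p under 0.05, and DESeq2 called 27 genes.

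The lowest Kit-W/sh tumor was the same library for all 3 genes, the one labelled Kit-W/sh tumor 2 that carried mast cell transcripts. It stood at 357 CPM for Hells, 159 CPM for Bora and 653 CPM for Shmt2, within the range of the Kit-B6 tumors each time. Without it the other 5 averaged 746 ± 186 CPM for Hells, 206 ± 19.3 CPM for Bora and 1391 ± 349 CPM for Shmt2. The log2 differences were then 0.93 ± 0.18, 0.73 ± 0.20 and 0.92 ± 0.18. Bora and Shmt2 no longer overlapped between genotypes, with Kit-B6 maxima of 180 and 933 CPM against Kit-W/sh minima of 183 and 1102 CPM, and Hells still did. Leaving this library out separated the groups of 4.13% of all genes. The part of mast cell content in these levels was not tested.

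The change of the genotype difference from preneoplastic colon to tumor was measured as an interaction. It contains the genotype difference in tumors that was known when the genes were chosen, so its values for the 3 genes are a description with no test. The log2 value was 0.54 ± 0.45 for Hells (95% interval -0.42 to 1.505), 0.27 ± 0.34 for Bora (-0.45 to 0.98) and 0.66 ± 0.39 for Shmt2 (-0.16 to 1.48). Without the library labelled Kit-W/sh tumor 2 it was 0.67 ± 0.40, 0.32 ± 0.34 and 0.79 ± 0.31. The value of Hells rests on the Kit-W/sh preneoplastic samples, at 1.16 ± 0.53 without sample 1 and 0.11 ± 0.51 without sample 2. That of Bora was 0.16 without Kit-B6 tumor 2, 0.17 without Kit-B6 preneoplastic sample 3 and 0.39 without Kit-B6 tumor 3. Over all genes, edgeR called 0% of the 869 tested, with 63 at an unadjusted p under 0.05, and DESeq2 called 1, the MHC gene H2-T24.

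**Figure D2:**
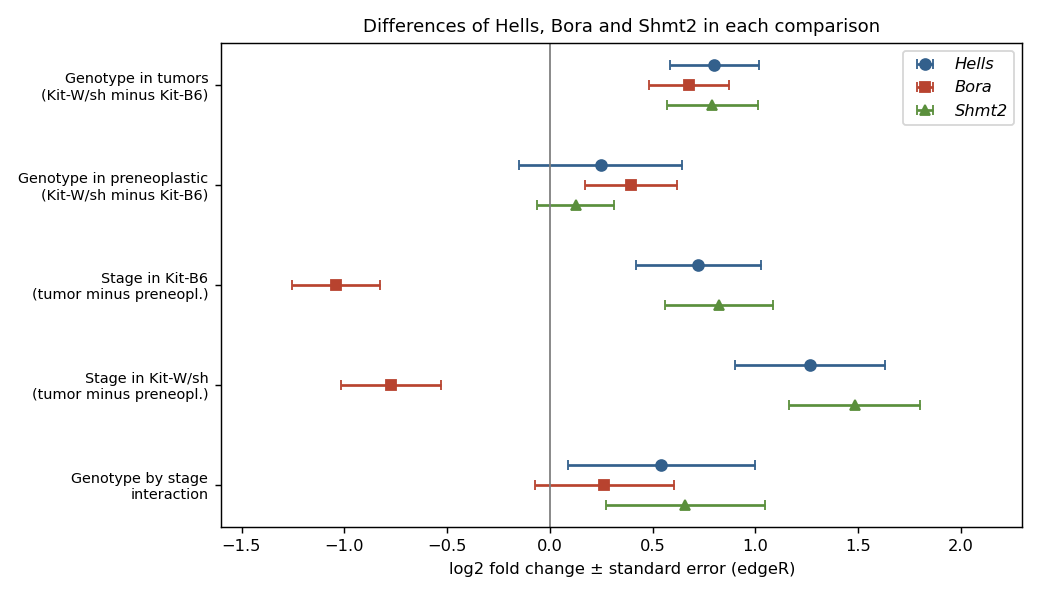
log2 fold change with its standard error (edgeR) of each gene in the 4 comparisons and the interaction. Bora is the 1 gene left of zero, at -1.04 in Kit-B6 and -0.77 in Kit-W/sh for tumor minus preneoplastic, and all 3 genes lie between 0.68 and 0.80 for genotype in tumors.

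Among tumors of 1 genotype, the closest pair differed between the genotypes, Hells and Shmt2 in Kit-W/sh and Hells and Bora in Kit-B6. No test compared the pairs. Each r within a genotype has 6 tumors behind it, and Kit-B6 tumor 3 was the highest of its group in both Hells and Bora. Each tumor's log2(CPM + 1) was taken relative to the mean of its genotype, which removes the difference that chose the genes, and 3 pairs were tested. Hells and Shmt2 gave Pearson's r = 0.83 (permutation p = 0.00737, adjusted over the 3 pairs 0.0221) and Spearman's rho = 0.57 (permutation p = 0.0885, adjusted 0.17) over the 12 tumors. Without Kit-W/sh tumors 2 and 4, the farthest from the median in Hells, r was 0.54 (permutation p = 0.163), so the relation rests on those samples. Leaving out only Kit-W/sh tumor 2 gave r = 0.64 (permutation p adjusted over the pairs 0.211), and leaving out only Kit-W/sh tumor 5 gave r = 0.795 (permutation p adjusted 0.0867). Within genotypes r was 0.93 in the 6 Kit-W/sh tumors and 0.35 in the 6 Kit-B6 tumors. The 0.93 includes the library labelled Kit-W/sh tumor 2, and no r within Kit-W/sh was taken without it.

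Hells and Bora gave r = 0.47 (permutation p = 0.0475, adjusted 0.0713) and rho = 0.49 (permutation p = 0.113, adjusted 0.17), with r = 0.76 in Kit-B6 and 0.52 in Kit-W/sh tumors. Kit-B6 tumor 3 deviated by 0.43 in Hells and 0.59 in Bora. The other Kit-B6 tumors lay between -0.12 and -0.04 in Hells, and no r within Kit-B6 was taken without tumor 3. Without Kit-W/sh tumors 2 and 4, r over the other tumors was 0.50 (permutation p = 0.122). Bora and Shmt2 gave r = 0.32 (permutation p = 0.234, adjusted 0.234) and rho = 0.22 (permutation p = 0.5, adjusted 0.5), with r = 0.21 in Kit-B6 and 0.59 in Kit-W/sh tumors. Without Kit-B6 tumors 2 and 3, the farthest in Bora, r was 0.46 (permutation p = 0.266), and without only the library labelled Kit-W/sh tumor 2 it was 0.11 (permutation p adjusted 0.765). Leaving out 1 tumor at a time gave 0.11 to 0.45. For Hells and Bora r was 0.34 without that library (permutation p adjusted 0.31). Values of all genes in a library share its depth and scaling.

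**Figure D3:**
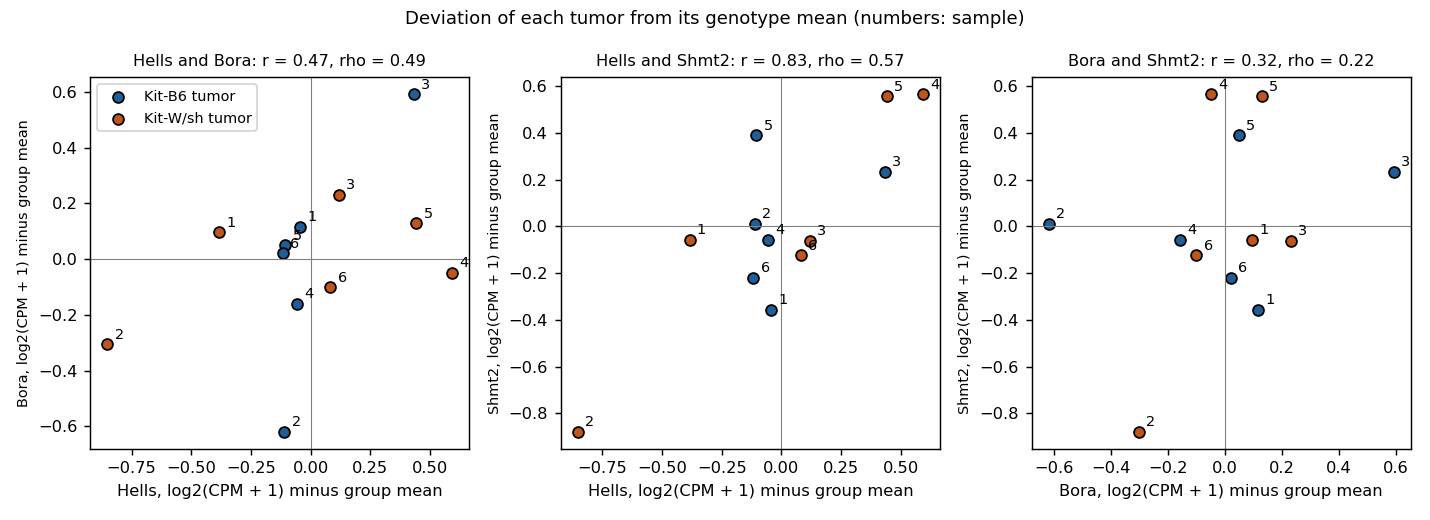
Deviation of each of the 12 tumors from its genotype mean, in log2(CPM + 1), for the 3 pairs of genes, with sample numbers beside the points. In the middle panel Kit-W/sh tumor 2 lies alone at the lower left and Kit-W/sh tumors 4 and 5 at the upper right, and r = 0.83 falls to 0.54 without tumors 2 and 4.

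Over the same 12 deviations, the genes most like each member were ranked among 756 others, as a description. For Hells they were the proteasome assembly chaperone gene Psmg3 (r = 0.89), the amino acid transporter Slc7a6 (0.88), the prolyl endopeptidase Prep (0.87), the proteasome subunit gene Psmd6 (0.86) and the mitotic phosphatase Cdc25c (0.86). The median r of all genes with Hells was 0.04, and Shmt2 ranked 12 and Bora 144. For Bora they included the RNA-binding protein gene Tia1 (r = 0.86), Tmem184c (0.85), the transcription factor gene Nfatc4 (0.85) and the proteasome subunit gene Psmb2 (0.83). For Shmt2 the most similar gene was Hells itself (r = 0.83). After it came the costimulatory ligand Tnfsf9 (0.82), the SWI/SNF chromatin subunit gene Smarcb1 (0.82), the DNA sensor adaptor Tmem173 (STING, 0.80) and Rfxap, a factor for MHC class II genes (0.78). Without the library labelled Kit-W/sh tumor 2 these orders changed for Hells and Shmt2. Psmd6 (0.82) and Prep (0.81) then ranked 3 and 5 for Hells, with Shmt2 at rank 34 (0.64), and Hells ranked 12 for Shmt2. Tia1 (0.85) still ranked 1 for Bora.

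Of the pathways these genes belong to, the panel measured 9 further genes from lists of DNA replication, mitosis, G1 and S entry, and serine, glycine and folate metabolism. The glycine decarboxylase gene Gldc was too low to test, leaving 8. Between genotypes in tumors 7 of the 8 had a positive value for Kit-W/sh, with a median log2 fold change of 0.20 against -0.01 for all 799 genes, and edgeR called 0 of them. The replication kinase gene Cdc7 was at 0.78 ± 0.30 (edgeR adjusted p = 0.265). Atf4, a transcription factor that induces serine synthesis and folate genes in stressed cells, was at 0.66 ± 0.19 (edgeR adjusted p = 0.154). The inhibitor of apoptosis and chromosomal passenger Birc5 was at 0.49 ± 0.22 (edgeR adjusted p = 0.363). The proliferation marker Mki67 was at 0.22 ± 0.26 (edgeR adjusted p = 0.713), with 1018 ± 312 CPM in Kit-W/sh and 867 ± 343 CPM in Kit-B6 tumors. Without the library labelled Kit-W/sh tumor 2, 7 of the 8 were again positive with a median of 0.29, 0 were called, and Cdc7 was at 0.92 ± 0.27, Atf4 at 0.75 ± 0.18 (edgeR adjusted p = 0.0971 and 0.0517) and Mki67 at 0.30 ± 0.26. The value of Mki67 lay below those of Hells, Bora and Shmt2, and the difference between genes was not tested.

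From preneoplastic colon to tumor, Cdc7 and Atf4 fell in both genotypes and none of the 8 was called higher. Of all 869 genes tested, 18.9% in Kit-B6 and 18.8% in Kit-W/sh mice were called lower, and 22.2% and 20.9% higher. The counts among the 8 genes were not tested against these shares. Cdc7 fell by 1.37 ± 0.36 in Kit-B6 (edgeR adjusted p = 0.00704) and by 1.16 ± 0.40 in Kit-W/sh mice (0.0308), the same side as Bora. Atf4 fell by 1.48 ± 0.21 in Kit-B6 (edgeR adjusted p = 8.38e-05) and by 0.83 ± 0.24 in Kit-W/sh mice (0.0122), opposite to Shmt2 of the same list. Mki67 was at 0.17 ± 0.33 and 0.29 ± 0.39 and the kinetochore gene Cenpf at 0.59 ± 0.29 and 0.68 ± 0.34 in Kit-B6 and Kit-W/sh mice, with edgeR adjusted p-values of 0.113 to 0.69. The medians of the 8 genes were -0.11 in Kit-B6 and 0.20 in Kit-W/sh mice, against 0.00 and 0.08 for all 869 genes. In preneoplastic colon the median genotype difference was 0.01, against -0.01 for all 777 genes, with 0 called.

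**Figure D4:**
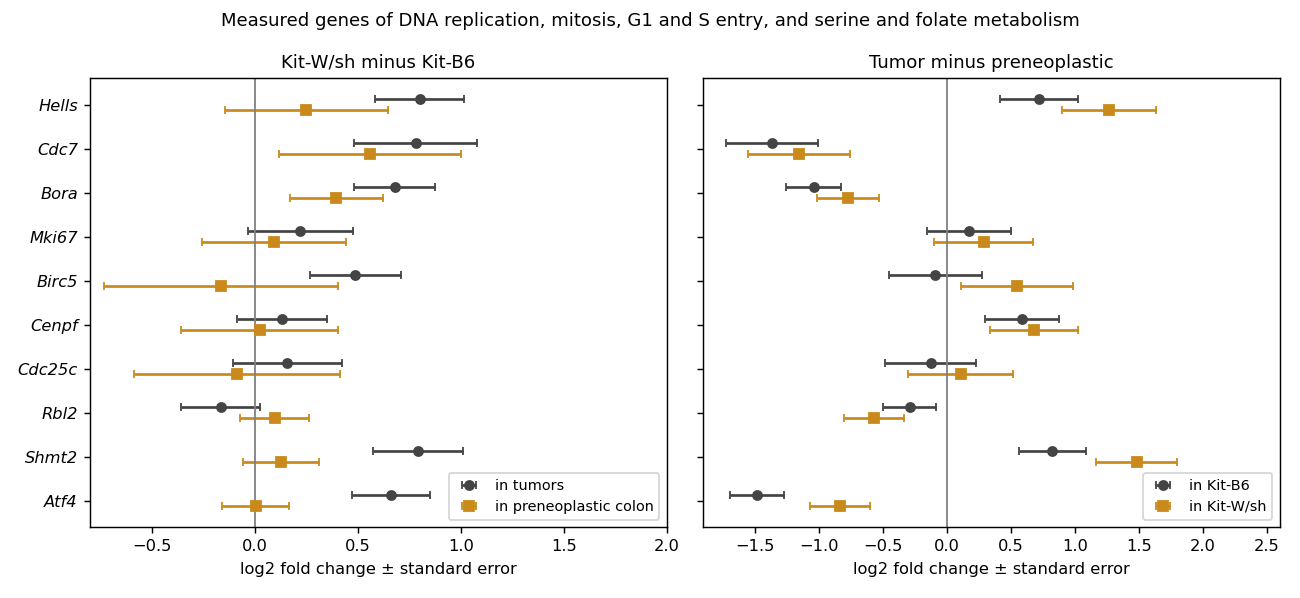
log2 fold change with its standard error (edgeR) of Hells, Bora, Shmt2 and 7 of the 8 other tested genes of their pathways, between genotypes (left) and between stages (right). On the left the tumor values of Hells, Cdc7, Bora, Shmt2 and Atf4 lie between 0.66 and 0.80 while Mki67 is at 0.22. Hells, Bora and Shmt2 were chosen with their tumor values known. On the right Cdc7, Bora, Atf4 and Rbl2 lie left of zero in both genotypes, of which Rbl2 was not called.

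Other cell types moved with these comparisons. The summed level of 7 neutrophil genes was 588 to 1210 CPM in Kit-W/sh tumors and 122 to 646 CPM in Kit-B6 tumors, and 37.5 to 68.3 CPM in preneoplastic colon, where 2 of the 7 were at 0 in every library of a genotype. The summed 10 monocyte and macrophage genes were at 3178 to 4737 CPM in Kit-W/sh and 1681 to 4649 CPM in Kit-B6 tumors and at 1375 to 1770 CPM in preneoplastic colon, with 1 of the 10, Marco, at 0 throughout. The 10 B cell genes summed to 1745 to 4741 CPM in preneoplastic colon and 647 to 2958 CPM in tumors, and the 15 T cell genes to 728 to 2090 CPM and 303 to 1293 CPM. The 5 epithelial genes summed to 89830 to 184300 CPM in preneoplastic colon and 40870 to 85100 CPM in tumors. Car4, Ceacam1 and Ceacam20 had lower means in tumors, Epcam did not share this difference, and Muc1 went the other way. Muc1 averaged 47.6 and 137 CPM in Kit-B6 and Kit-W/sh preneoplastic colon, and 275 and 312 CPM in their tumors. The 5 stromal and endothelial genes summed to 1941 to 3881 CPM in preneoplastic colon and 3172 to 11780 CPM in tumors. Col3a1 gave most of the counts behind this sum. Col3a1, Pdgfrb and Kdr had higher means in tumors of both genotypes, and Fap and Zeb1 had lower means. Fap averaged 79.8 and 77.5 CPM in Kit-B6 and Kit-W/sh preneoplastic colon, and 25.8 and 15.5 CPM in their tumors. Zap70 of the T cell genes and Cd163 of the macrophage genes also went against their sums. Kit-B6 tumor 4 alone set several ends of these ranges. It had the lowest neutrophil, monocyte and macrophage, T cell and stromal sums of the Kit-B6 tumors, and the highest epithelial sum. The neutrophil sums of the other Kit-B6 tumors were 414 to 646 CPM. The 9 mast cell genes summed to 458 to 1545 CPM in Kit-B6 and 268 to 1524 CPM in Kit-W/sh tumors. The library labelled Kit-W/sh tumor 2 held the 1524 CPM, and the other Kit-W/sh tumors lay at 268 to 630 CPM. It had the lowest neutrophil sum of that group, 588 CPM against 765 to 1210 CPM. Its T cell sum was the highest, 1293 CPM against 544 to 683 CPM. Its monocyte and macrophage sum was the lowest, 3178 CPM against 3438 to 4737 CPM. Epcam differed by -0.04 ± 0.13 between genotypes in tumors and by 0.02 ± 0.16 and -0.08 ± 0.18 between stages in Kit-B6 and Kit-W/sh mice (edgeR adjusted p = 0.752 to 0.913). The share of these cells in the levels of Hells, Bora and Shmt2 was not tested, and in bulk tissue more cells of a type and more RNA per cell cannot be told apart.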

How the data were processed

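Per the labels' protocols, libraries were made from total RNA of frozen tissue with a QIAseq amplicon panel of immuno-oncology genes. The authors deposited a table of raw counts for each library, and whether reads or molecular tags were counted is not given in the sources used here. The submitters' processing notes named mm9 and DESeq2 without a role, and the aligner and counter are not given in the sources used here. Each table held 988 genes and 5 control amplicons, which had 0 counts and were left out. Libraries of a group differed beyond counting noise (lowest chi-square per degree of freedom 13.0).

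Counts were tested in R 4.3.3 with edgeR 4.0.16 (TMM scaling, genes kept by filterByExpr at a count minimum of 10, robust quasi-likelihood F test, two-sided). P-values were Benjamini-Hochberg adjusted over all genes tested, with a threshold of 0.05. Genotype comparisons used the libraries of their stage, and stage and interaction comparisons used all 17 libraries in 1 fit of 4 groups. Levels are CPM after TMM scaling over all libraries, and intervals of differences are 95% intervals of the same fit. Correlations used log2(CPM + 1) and 100000 permutations within genotype (Python 3.11.15, two-sided). Alternatives were DESeq2 1.42.0, other scalings, no filter, a replicate block, other sample sets, leaving out each library, and Kit-B6 tumors 4 and 5 summed, since their deposited tables share a code that no label explains. Fits were tested on simulated counts with known changes.

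The members, lists and tests were chosen with earlier results of these data known. No p is given for a member in a contrast where the earlier naming rule (in each direction, at most 12 genes by p) took it, nor for any member between genotypes in tumors or in the interaction, which contains that difference. P-values of the stage comparisons are printed, although their tumors also entered the genotype comparison in tumors. Likeness was ranked among genes with a mean of at least 20 CPM, naming 5 for each member. Up to 6 genes of each pathway list are named. The values of 1 pathway gene are not reported here.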

Additional observations from a re-analysis of the deposited data

Results flagged for a closer look

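Hells in Kit-B6 tumor 3 stood apart from its group, at 518 CPM where the other 5 Kit-B6 tumors lay between 353 and 372 CPM. The gap was 0.886 of the range of the group. The same tumor had the highest Bora of its group, at 180 CPM, and 838 CPM of Shmt2, second to the 933 CPM of Kit-B6 tumor 5. The check took each of the 3 genes in Kit-B6 and in Kit-W/sh tumors, and of these 6 sets this was the 1 that stood out. Chance alone marks about 1 set in 20, and 6 sets give 6 openings for such a mark.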

How the results depend on the processing

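Of 282 values of the 3 genes under alternatives, 265 kept their direction and their side of the threshold (or stayed within 1 SD), 10 lost a call, 4 gained one and 3 changed sign. Only calls between stages could be lost. The losses were 3 of 18 for Shmt2 in Kit-B6, 2 of 17 for Hells and 5 of 17 for Bora in Kit-W/sh mice. Values between genotypes in tumors were judged by the 1 SD rule alone, so a change of side there was not counted. Interaction values were scored by the threshold, and none was called. DESeq2 called 27 genes between genotypes in tumors, 21 in preneoplastic colon and 1 in the interaction, and Hells passed between stages in Kit-B6 mice at 0.73. Hells in that comparison also passed with unscaled library totals (0.96), with only the 2 groups compared (0.72) and when scaled to the 9 last-listed genes, an alternative chosen after seeing the data (0.795). Bora between stages in Kit-W/sh mice lost its call with unscaled totals (-0.52), with the reference genes Tfrc and Rpl13a (-0.62) and with the 9 last-listed genes (-0.55). With the 9 last-listed genes Shmt2 turned to -0.022 between genotypes in preneoplastic colon. The cause was not tested. Unscaled totals moved the median of all genes between stages to 0.24 in Kit-B6 and 0.34 in Kit-W/sh mice. The calls were then 273 higher and 101 lower, and 253 and 108, against 193 and 164, and 182 and 163, with TMM. The 1 call in preneoplastic colon became 0 with unscaled totals, the 9 last-listed genes, all 17 libraries in 1 fit and the replicate block, and the 345 calls between stages in Kit-W/sh mice became 180 with reference genes.

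Whether replicate numbers pair the samples was not settled by these data. Deviations of same-numbered tumors correlated from -0.229 to 0.364, over 0.1 in 3 of 6 pairs, and 5 of 12 tumors correlated best with their own number. With the replicate block, Shmt2 between stages in Kit-B6 mice was at 0.63 (adjusted p = 0.0647) and Hells in Kit-W/sh mice at 0.91 (adjusted p = 0.0796), the calls went from 357 to 276 and from 345 to 250, and no other call of the 3 genes changed.

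Leaving out 1 library at a time gave 0 to 16 calls in preneoplastic colon (16 without Kit-B6 sample 1), 132 to 367 between stages in Kit-W/sh mice (132 without preneoplastic sample 1 and 159 without sample 2) and 0 to 2 in the interaction (H2-T24 and Gpc4 without Kit-B6 preneoplastic sample 1). Between genotypes in preneoplastic colon the log2 fold change ran from -0.39 to 0.67 for Hells and from -0.034 to 0.23 for Shmt2, which turned negative without Kit-W/sh sample 2. Between stages it ran from 0.74 to 0.90 for Shmt2 in Kit-B6, from 0.84 to 1.88 for Hells in Kit-W/sh and from -0.82 to -0.72 for Bora in Kit-W/sh mice. The r of Hells and Shmt2 ran from 0.64 to 0.91 and lost its call without Kit-W/sh tumor 2 or 5, and rho was 0.57. The r of Hells and Bora ran from 0.32 to 0.57 and passed without Kit-W/sh tumor 1 or 4. Counting error was at most 13.5% of a level of the 3 genes. It exceeded the spread between samples for Bora in Kit-W/sh preneoplastic colon (coefficient of variation 2.06%, counting error 6.36% and 7.35%) and for Shmt2 in Kit-B6 preneoplastic colon (6.04%, counting error 6.40% to 6.64%).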
